A study of Mus musculus with 8 samples.

Results

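Collagen genes encode the chains of the collagen family, the main structural proteins of the extracellular matrix. They were taken here as every gene whose symbol is Col, a type number, the letter a and a chain number, which gave 44 genes of the 24318 gene symbols in the expression tables. RNA was measured by poly(A) RNA-seq in mouse E14 embryonic stem cells (ESC) and in neural progenitor cells (NPC) derived from them. Wdr68 is an older name of Dcaf7, the gene knocked out in this study, whose title concerns its part in the activating role of the PRC1-AUTS2 complex and in stem cell differentiation. The 4 groups were Wdr68 knockout (KO) NPC, wild-type (WT) NPC, KO ESC and WT ESC, with 2 libraries each. ESC of both genotypes were grown in serum medium with LIF and inhibitors of Mek and GSK3, on mouse embryonic fibroblast feeders or on gelatin; which of these surfaces a library came from is not in the labels. NPC of both genotypes came from embryoid bodies, grown for 2 days as hanging drops that held 500 cells each, for 2 days in suspension and for 4 days with retinoic acid. How the KO was made, whether it is 1 clone and whether the 2 libraries of a group came from separate cultures is not in the labels. The p-values therefore set group differences against the spread of the deposited libraries, pooled over the 4 groups, and that spread may be technical.

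A collagen molecule is a helix wound from chains that carry glycine at regular steps, and the chains of 1 molecule can come from 1 gene or from several. Fibrillar collagens form the cables of connective tissue, type IV collagens form the sheet of the basement membrane, and smaller classes coat fibrils, make beaded filaments or cross the cell membrane. In the early embryo type IV and type XVIII collagens lie in the first basement membranes, while fibrillar collagens are typical of mesenchyme and, for type II, of cartilage and notochord. Neural progenitors rest on a basement membrane, so both kinds of collagen can be met in a culture that holds neural and mesenchymal cells.

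Levels are given as FPKM, fragments scaled to transcript length and to the mapped fragments of the library, which allows genes to be compared with each other. The depth implied by the confidence limits in the tables was 5996677 to 7942644 fragments per library, and the duplicates correlated at r = 0.950 to 0.962 across all genes tested. Dcaf7 itself had 8.36 and 8.99 FPKM in KO NPC against 27.2 and 29.7 FPKM in WT NPC, and 2.80 and 2.26 FPKM in KO ESC against 12.4 and 14.2 FPKM in WT ESC, lower in every KO library. The 6 stem cell markers summed to 8.34 and 12.2 FPKM in KO NPC, 7.21 and 14.03 FPKM in WT NPC, 3508 and 3773 FPKM in KO ESC and 3218 and 3296 FPKM in WT ESC; in KO NPC against WT NPC 1 of the 6 rose (Klf4) and 1 fell (Esrrb). The 6 neural progenitor markers summed to 31.2 and 32.3 FPKM in KO NPC against 181 and 182 FPKM in WT NPC, and 5 of them (Sox1, Sox2, Pax6, Fabp7 and Hes5) fell in KO NPC, so most markers of the cell type named in the label were low in the KO NPC libraries. Of all genes tested 14.7% rose and 12.7% fell in KO NPC against WT NPC. In bulk libraries fewer cells of a type and less RNA per cell cannot be told apart.

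Promoter sequences are shown for 3 collagen genes that differ in how they behaved between the NPC groups (Col25a1 higher in KO NPC, Col1a2 and Col3a1 not called) and for the stretch shared by Col4a1 and Col4a2, which both fell. They are RefSeq sequences of build GRCm38.p6, on the plus strand, 5′ to 3′, and the first 3 give the 250 bases before the start. Capitals mark the letters TATAAA (the core of the TATA box), CCAAT (the CCAAT box) and GGGCGG (the GC box that Sp1 factors bind), each searched on both strands, so that CCGCCC counts as the last of these.
Col25a1 (chr3:130180595-130180844): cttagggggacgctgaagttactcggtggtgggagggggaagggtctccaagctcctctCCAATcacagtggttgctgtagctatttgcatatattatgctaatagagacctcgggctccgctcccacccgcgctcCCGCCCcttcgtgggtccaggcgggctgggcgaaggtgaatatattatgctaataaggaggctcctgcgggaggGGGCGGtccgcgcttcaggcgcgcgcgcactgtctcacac
Col3a1 (chr1:45311288-45311537): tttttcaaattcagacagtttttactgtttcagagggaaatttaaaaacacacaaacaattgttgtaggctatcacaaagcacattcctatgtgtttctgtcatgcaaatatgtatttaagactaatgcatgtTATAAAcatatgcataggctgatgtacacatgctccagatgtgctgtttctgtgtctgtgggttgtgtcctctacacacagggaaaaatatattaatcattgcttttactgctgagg
Col1a2 (chr6:4505368-4505617): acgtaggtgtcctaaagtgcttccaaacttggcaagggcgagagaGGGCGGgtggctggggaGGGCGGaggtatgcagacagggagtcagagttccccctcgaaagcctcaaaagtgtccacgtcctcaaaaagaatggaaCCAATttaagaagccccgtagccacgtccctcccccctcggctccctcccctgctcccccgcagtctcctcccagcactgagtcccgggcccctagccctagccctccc
Col4a1 and Col4a2 (chr8:11312777-11312854): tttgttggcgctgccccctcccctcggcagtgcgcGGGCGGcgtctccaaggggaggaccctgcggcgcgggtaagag

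TATAAA was found in 5 of 38 collagen promoter windows (13.2%), against 13.6% of all 32851 windows of the same length, 300 bases. CCAAT was found in 13 of the 38 (34.2%), against 37.4% of all windows. GGGCGG was found in 23 of the 38 (60.5%), against 35.7% of all windows. Of the 44 collagen genes 35 had a window in the RefSeq table, some of them more than 1, and the windows with GGGCGG belong to 22 genes. The windows were not matched for base composition, so the shares are a description. The Col3a1 promoter held TATAAA, whereas those of Col25a1 and Col1a2 held CCAAT and GGGCGG; the 78 bases that the windows of Col4a1 and Col4a2 share held 1 GGGCGG. A match is a description of letters and not of binding.

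The make-up of collagen RNA differed between NPC and ESC, though Col18a1 and Col4a1 were among the 3 leading genes of every library. Summed over the 44 genes, collagen RNA came to 200.2 and 210.3 FPKM in KO NPC, 241 and 260 FPKM in WT NPC, 34.2 and 30.9 FPKM in KO ESC and 33.5 and 32.3 FPKM in WT ESC. All NPC libraries thus stood above all ESC libraries, and both KO NPC libraries stood below both WT NPC libraries. In all 4 NPC libraries the order was Col3a1, Col18a1, Col4a1, and these 3 genes held 42.4% to 48.5% of the collagen FPKM. In all 4 ESC libraries it was Col18a1, Col4a1, Col9a2, with 78.8% to 80.9%. Col18a1 alone reached 5 FPKM in ESC, and 37 of the 44 genes stayed below 0.5 FPKM in all 4 ESC libraries.

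**Figure D1:**
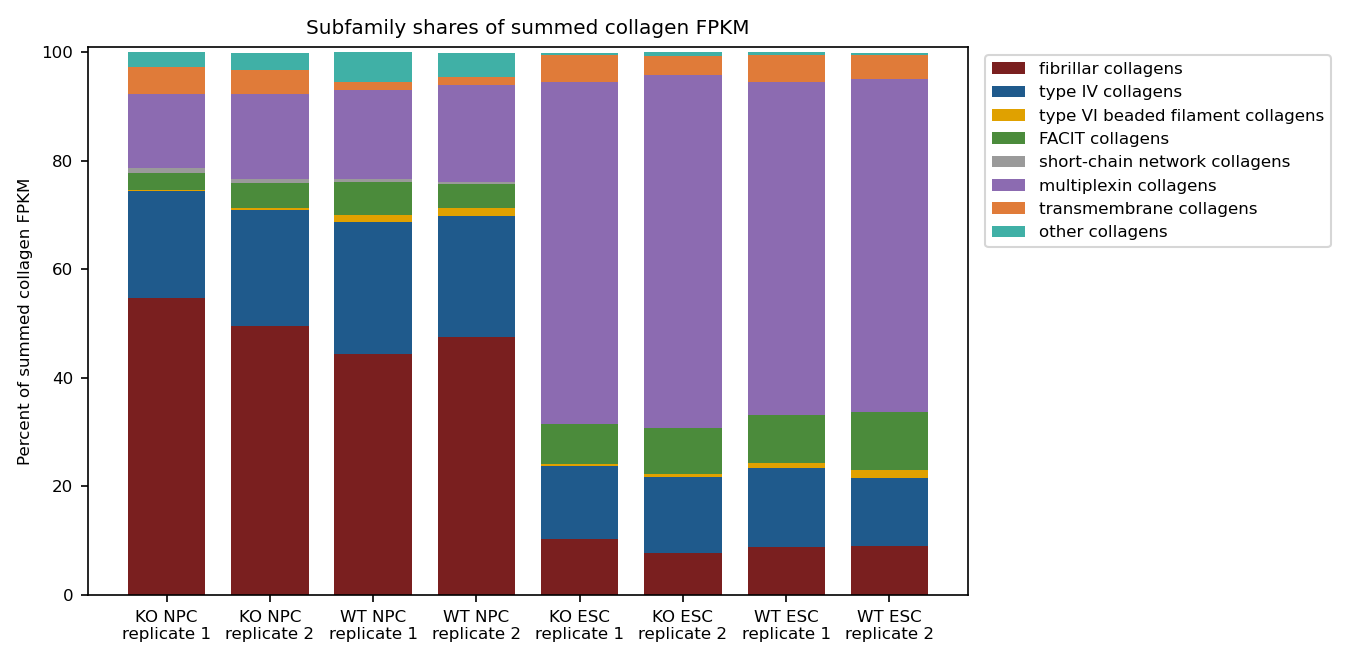
Each stacked bar is 1 library and shows the percent of its summed collagen FPKM held by each collagen class. Fibrillar chains hold 54.8% and 49.5% in KO NPC and 44.4% and 47.5% in WT NPC, against 7.71% to 10.3% in the ESC libraries, where the multiplexins (Col18a1 and Col15a1) hold 61.3% to 65.1%.

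Levels were tested with limma on log2(FPKM + 1), over the 13318 genes that reached 1 FPKM in at least 2 libraries, with Benjamini-Hochberg adjustment over all of them and a threshold of 0.05. Changes below are on this log2 scale with their standard error (SE); they understate the change of genes near or below 1 FPKM. Of the 44 collagen genes 25 were tested. Of these, 19 passed the minimum only through NPC libraries, so they had to stand higher in at least some NPC than in ESC. The other 19 genes were not tested, and the highest value among them was 1.86 FPKM, for Col9a3 in KO NPC replicate 2.

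Collagen genes differed in both directions between KO NPC and WT NPC. In KO NPC against WT NPC, 13 of the 25 tested genes passed (27.4% of all genes tested did): 9 fell (12.7% of all genes tested) and 4 rose (14.7%). The fallen genes were Col12a1, Col14a1, Col6a1, Col26a1, Col6a2, Col1a1, Col4a2, Col18a1 and Col4a1, and those that rose were Col25a1, Col9a1, Col5a2 and Col8a2. The median change over the 25 was −0.04, beside 0.05 over all genes tested. For 6 of the 13 the filter itself bears on the call, since they reached the minimum only through the group where they are high: Col25a1, Col9a1 and Col8a2 through KO NPC, and Col14a1, Col6a1 and Col6a2 through WT NPC. Among the other 19 tested genes 6 fell and 1 rose. The counts are therefore a description and support nothing about the family. With median-ratio scaling in place of the deposited one, all genes split into 1516 higher and 1810 lower, against 1962 higher and 1686 lower as deposited, while the collagen genes split into 3 higher and 9 lower.

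**Figure D2:**
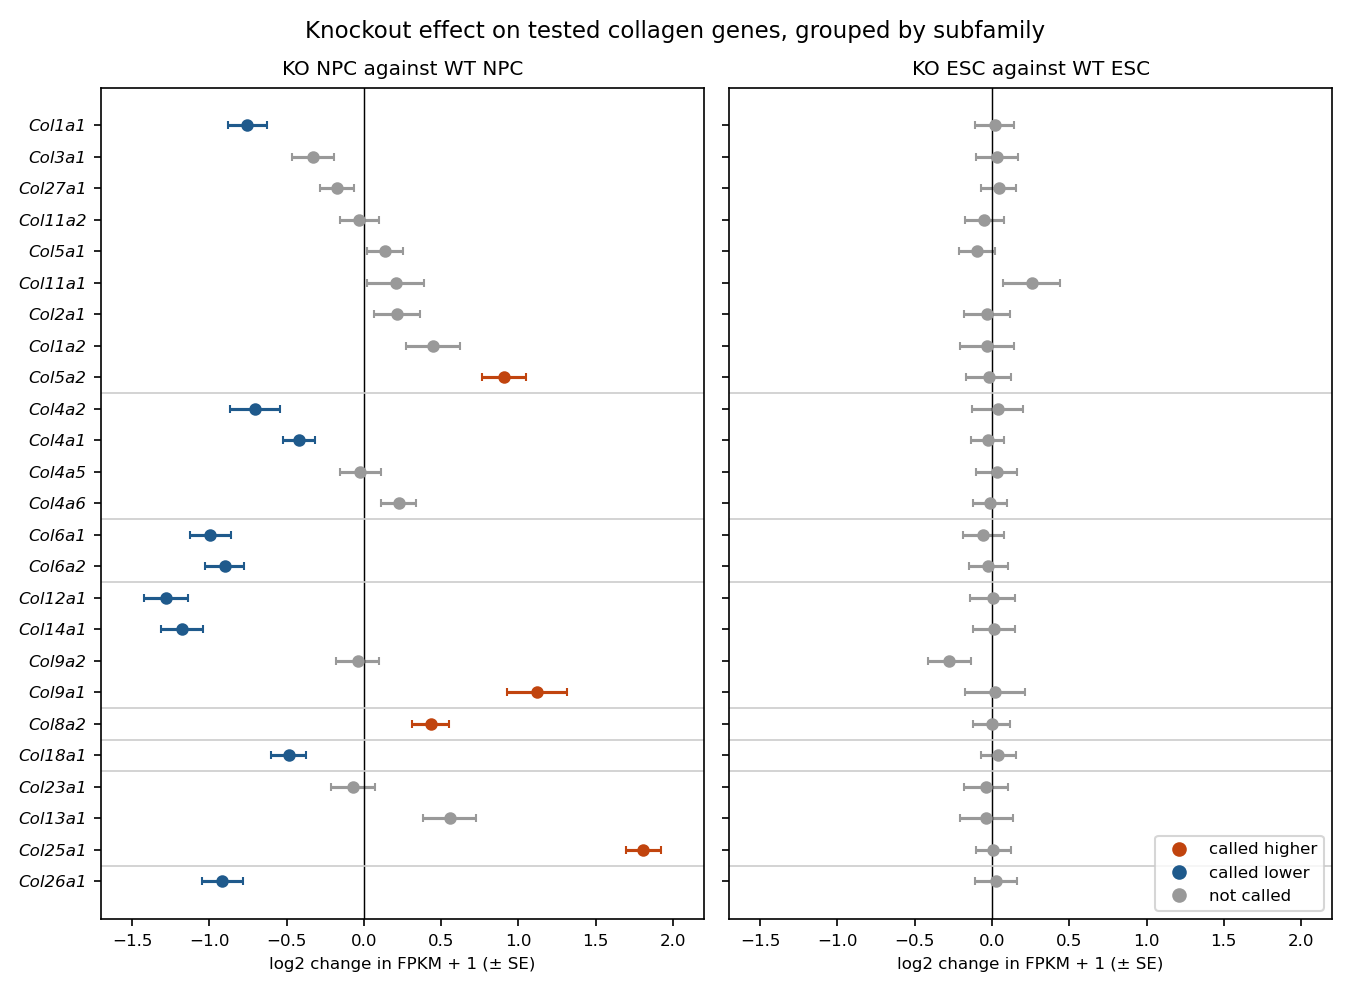
Points are log2 changes in FPKM + 1 with SE bars for the 25 tested collagen genes, with horizontal lines between classes (from the top fibrillar, type IV, type VI, FACIT, short-chain network, multiplexin, transmembrane, other). In NPC (left) the changes run from −1.28 for Col12a1 to 1.81 for Col25a1, while in ESC (right) they run from −0.28 for Col9a2 to 0.26 for Col11a1 and none passes.

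The most abundant fibrillar chain was Col3a1, which forms type III collagen of extensible tissues as a molecule of 1 kind of chain. Col3a1 had 42.6 and 35.6 FPKM in KO NPC against 45.6 and 53.2 FPKM in WT NPC. Both KO NPC libraries stood below both WT NPC libraries, and the change of −0.33 ± 0.14 did not pass (adjusted p = 0.117, limma). In the 4 ESC libraries Col3a1 lay between 0 and 0.114 FPKM.

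The chains of type I collagen, the main fibril of skin, bone and tendon, differed from each other. Col1a1, whose product usually supplies most of the chains of the molecule, had 13.3 and 11.2 FPKM in KO NPC against 20.8 and 21.7 FPKM in WT NPC. The groups were apart, and Col1a1 fell by 0.76 ± 0.13 (adjusted p = 0.00476, limma). Col1a2, its partner chain, had 18.0 and 17.8 FPKM in KO NPC against 10.9 and 15.2 FPKM in WT NPC. Col1a2 was higher in both KO NPC libraries, yet its change of 0.45 ± 0.17 did not pass (adjusted p = 0.104, limma); without WT NPC replicate 2 it did (change 0.67, adjusted p = 0.0435, limma). Col1a2 thus stood above Col1a1 in KO NPC and below it in WT NPC. With a pseudocount of 0.1 the Col1a1 change of −0.80 did not pass (adjusted p = 0.124, limma).

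Type II collagen, the fibril of cartilage and the notochord sheath, is built from Col2a1 chains. Col2a1 had 13.1 and 15.6 FPKM in KO NPC against 10.96 and 13.6 FPKM in WT NPC, and the groups overlapped. Its change was 0.22 ± 0.15 (adjusted p = 0.337, limma).

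Types V and XI are minor fibrillar collagens that lie inside larger fibrils and set their width. Col5a1 had 7.07 and 6.92 FPKM in KO NPC against 6.12 and 6.46 FPKM in WT NPC, with a change of 0.13 ± 0.12 (adjusted p = 0.445, limma). Its partner Col5a2 had 3.44 and 4.12 FPKM in KO NPC against 1.63 and 1.45 FPKM in WT NPC. Col5a2 thus stood apart between the groups and rose by 0.91 ± 0.14 (adjusted p = 0.00371, limma), the one fibrillar gene that did; with a pseudocount of 0.1 it did not pass (change 1.24, adjusted p = 0.136, limma). Col5a3, the remaining type V chain, stayed at or below 0.188 FPKM in all 8 libraries and was not tested.

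Col11a1 had 8.83 and 9.50 FPKM in KO NPC against 7.37 and 8.29 FPKM in WT NPC, and Col11a2, which joins it in type XI collagen, had 1.497 and 1.39 FPKM in KO NPC against 1.30 and 1.71 FPKM in WT NPC. Neither passed (changes 0.20 ± 0.18 and −0.03 ± 0.13, adjusted p = 0.468 and 0.901, limma). Col11a1 and Col5a1 were the fibrillar chains best seen in ESC, where Col5a1 lay between 1.06 and 1.41 FPKM and Col11a1 between 0.393 and 1.11 FPKM. Of the other fibrillar genes Col27a1 lay between 1.64 and 2.13 FPKM in NPC and was not called (−0.18 ± 0.11, adjusted p = 0.295, limma), and Col24a1 stayed at or below 0.248 FPKM and was not tested. In all, 1 of 9 tested fibrillar genes rose, 1 fell and 7 did not pass.

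**Figure D3:**
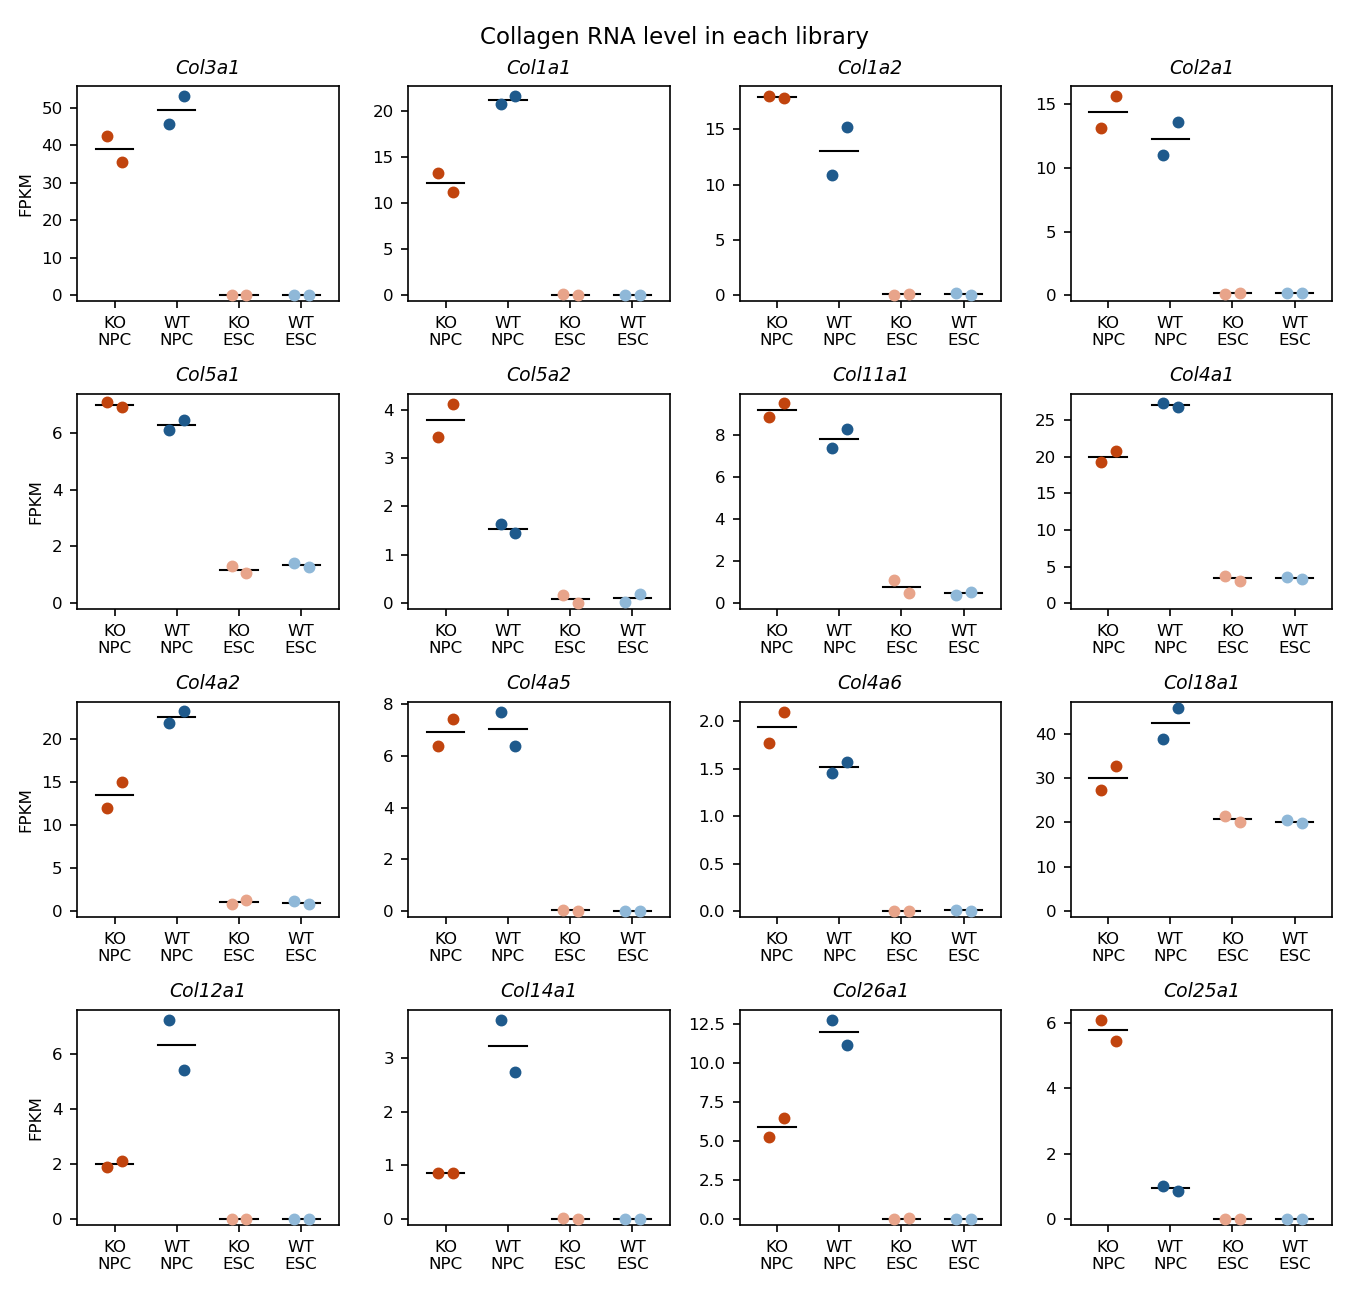
FPKM of 16 collagen genes in each library (points) with the group mean (line), on axes that differ between panels. Of the genes called in KO NPC against WT NPC, Col25a1 and Col5a2 stand higher in both KO NPC libraries. Col1a1, Col4a1, Col4a2, Col12a1, Col14a1, Col18a1 and Col26a1, also called, stand lower in both. Of the genes not called, Col1a2, Col5a1, Col11a1 and Col4a6 stand higher in both, Col3a1 stands lower in both, and Col2a1 and Col4a5 overlap. No share of all genes that stand apart in this way was taken, so this is a description. All except Col18a1 lie at or below 3.67 FPKM in the ESC libraries.

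Of the type IV chains, the pair of the widespread basement membrane fell and the pair encoded on the X chromosome did not. Col4a1 had 19.2 and 20.8 FPKM in KO NPC against 27.4 and 26.8 FPKM in WT NPC, a fall of 0.42 ± 0.10 (adjusted p = 0.0241, limma). Its partner Col4a2, whose chain joins that of Col4a1 in 1 molecule, had 11.96 and 15.0 FPKM in KO NPC against 21.8 and 23.2 FPKM in WT NPC, a fall of 0.70 ± 0.16 (adjusted p = 0.0186, limma). For both genes the NPC groups did not overlap. With 1 library fewer these calls were lost: that of Col4a1 without KO NPC replicate 1 (adjusted p = 0.127, limma), KO NPC replicate 2 (0.0646), WT NPC replicate 1 (0.0991) or WT NPC replicate 2 (0.0889), and that of Col4a2 without KO NPC replicate 1 (0.109), WT NPC replicate 1 (0.0669) or WT NPC replicate 2 (0.0980). With a pseudocount of 0.1 the Col4a2 change of −0.74 did not pass either (adjusted p = 0.0715, limma).

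Col4a5 and Col4a6, which build a type IV network found in fewer basement membranes, were well measured in NPC and close to 0 in ESC. Col4a5 had 6.40 and 7.44 FPKM in KO NPC against 7.71 and 6.39 FPKM in WT NPC, with full overlap and a change of −0.02 ± 0.13 (adjusted p = 0.932, limma). Col4a6 had 1.78 and 2.099 FPKM in KO NPC against 1.46 and 1.57 FPKM in WT NPC, with a change of 0.22 ± 0.11 (adjusted p = 0.184, limma). Col4a3 and Col4a4, known from the kidney filter, were at or below 0.180 FPKM in every library and were not tested.

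Each of these type IV pairs is encoded head to head. In mm9, the build of the tables, Col4a1 lies at chr8:11198423-11312826 and Col4a2 at chr8:11312829-11449287, with 2 bases between them. Col4a6 ends 1342 bases before Col4a5 starts on chromosome X, and Col4a4 ends 71 bases before Col4a3 starts on chromosome 1. The neighbours Col3a1 and Col5a2, 24624 bases apart on chromosome 1, differed in the NPC comparison: Col5a2 rose and Col3a1 was not called.

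Type VI collagen, which forms beaded filaments around cells, was low in all libraries and lower in KO NPC. Col6a1 had 0.205 and 0.384 FPKM in KO NPC against 1.36 and 1.80 FPKM in WT NPC, and fell by 0.99 ± 0.13 (adjusted p = 0.00188, limma). Col6a2 had 0.220 and 0.228 FPKM in KO NPC against 1.07 and 1.52 FPKM in WT NPC, and fell by 0.90 ± 0.12 (adjusted p = 0.00214, limma). Both genes reached the minimum only through WT NPC, so the filter bears on both calls. Col6a3, which supplies the remaining chain of the classical type VI molecule, was listed at 0 in both KO NPC libraries against 0.738 and 0.721 FPKM in WT NPC, and at 0 in all ESC libraries; it missed the minimum and was not tested. All 3 chains therefore stood lower in both KO NPC libraries than in either WT NPC library, from few fragments: Col6a1 rests on 9 to 61 per NPC library and Col6a2 on 9 to 49. Col6a4, Col6a5 and Col6a6 stayed at or below 0.181 FPKM throughout.

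FACIT collagens attach to the surface of fibrils. Col12a1 had 1.91 and 2.098 FPKM in KO NPC against 7.27 and 5.43 FPKM in WT NPC. Col14a1, a close relative met in the same kinds of tissue, had 0.854 and 0.864 FPKM in KO NPC against 3.72 and 2.74 FPKM in WT NPC. Both were lower in both KO NPC libraries, by 1.28 ± 0.14 for Col12a1 (adjusted p = 8.63e-04, limma) and by 1.18 ± 0.14 for Col14a1 (adjusted p = 9.48e-04, limma), and both lay at or below 0.0149 FPKM in ESC. Col14a1 reached the minimum only through WT NPC, so the filter bears on its call.

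The chains of type IX collagen, a FACIT of cartilage that decorates type II fibrils, did not move alike. Col9a1 had 1.67 and 2.51 FPKM in KO NPC against 0.667 and 0.189 FPKM in WT NPC, and rose by 1.12 ± 0.19 (adjusted p = 0.00576, limma). It reached the minimum only through KO NPC, so the filter bears on this call. Col9a2 had 0.643 and 0.760 FPKM in KO NPC against 0.854 and 0.647 FPKM in WT NPC, with a change of −0.04 ± 0.14 (adjusted p = 0.879, limma). Col9a3 had 0.488 and 1.86 FPKM in KO NPC against 0.669 and 0.456 FPKM in WT NPC, so its KO NPC duplicates differed more from each other than the groups did. The remaining FACIT genes (Col16a1, Col19a1, Col20a1 and Col22a1) stayed at or below 1.152 FPKM and were not tested.

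Col25a1 showed the largest rise of the 25 genes. It encodes a transmembrane collagen, also known as CLAC-P, whose shed ectodomain was found in amyloid plaques and which acts in motor axon growth into muscle. Col25a1 had 6.10 and 5.46 FPKM in KO NPC against 1.014 and 0.858 FPKM in WT NPC, and it was at or below 0.0133 FPKM in ESC. The groups were far apart against the spread of the duplicates, with a change of 1.81 ± 0.11 (adjusted p = 7.37e-05, limma). Col25a1 reached the minimum only through KO NPC, where it is high, so the filter bears on this call. Of the other transmembrane collagens Col13a1 had 2.64 and 2.51 FPKM in KO NPC against 1.597 and 1.28 FPKM in WT NPC, without overlap, and just missed the threshold (change 0.56 ± 0.17, adjusted p = 0.0503, limma). It passed without KO ESC replicate 1 (adjusted p = 0.0348, limma) or KO ESC replicate 2 (0.0349). Col23a1 did not pass (−0.07 ± 0.14, adjusted p = 0.764, limma), and Col17a1 stayed at or below 0.327 FPKM.

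Col18a1 encodes the core of a heparan sulfate proteoglycan of basement membranes, whose end fragment is endostatin. Col18a1 had 27.3 and 32.8 FPKM in KO NPC against 38.9 and 46.0 FPKM in WT NPC, and fell by 0.49 ± 0.11 (adjusted p = 0.0190, limma). The call was lost without KO NPC replicate 1 or without WT NPC replicate 2 (change −0.36 and −0.37, adjusted p = 0.102 for both, limma). Col26a1, also called Emid2, had 5.30 and 6.50 FPKM in KO NPC against 12.8 and 11.2 FPKM in WT NPC, and fell by 0.92 ± 0.13 (adjusted p = 0.00278, limma). Col8a2, a short-chain collagen known from the membrane under the corneal endothelium, had 1.25 and 1.44 FPKM in KO NPC against 0.876 and 0.611 FPKM in WT NPC, a rise of 0.43 ± 0.12 (adjusted p = 0.0362, limma). It reached the minimum only through KO NPC, so the filter bears on this call. The Col8a2 call was the least stable: it was lost without any 1 of 7 of the 8 libraries (all except WT NPC replicate 1), with adjusted p from 0.0594 to 0.122 (limma), and with a pseudocount of 0.1 (change 0.79, adjusted p = 0.130, limma).

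Partner chains were also compared within each library, as a ratio of FPKM that no scaling of the library can alter. The pairs were looked at after their values were seen, and 2 against 2 libraries cannot give an exact two-sided p below 0.333, so the ratios are a description. Col1a2 over Col1a1 was 1.36 and 1.59 in KO NPC against 0.523 and 0.701 in WT NPC. Col5a2 over Col5a1 was 0.486 and 0.595 in KO NPC against 0.266 and 0.225 in WT NPC. Both ratios were higher in KO NPC, whereas Col4a2 over Col4a1 was lower, at 0.622 and 0.720 in KO NPC against 0.794 and 0.864 in WT NPC. In ESC Col4a2 over Col4a1 was 0.232 and 0.402 for KO and 0.325 and 0.247 for WT, below all NPC values.

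**Figure D4:**
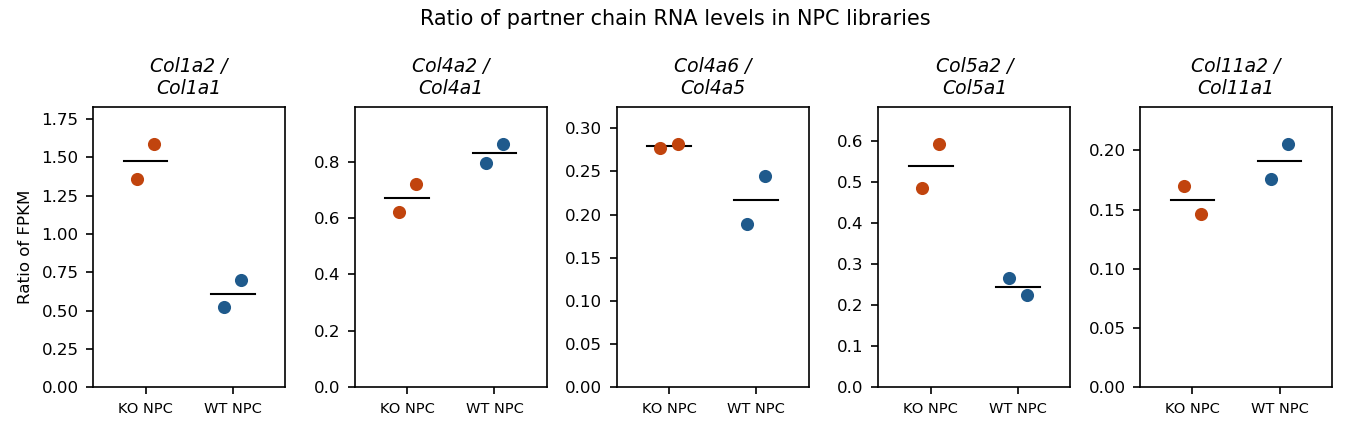
Ratios of FPKM between partner chains in the 4 NPC libraries (points) with group means (lines), on axes that start at 0. Col1a2 over Col1a1 stands above 1 in KO NPC (1.36 and 1.59) and below 1 in WT NPC (0.523 and 0.701). The groups do not overlap in any panel, but no share over other gene pairs was taken, so this is a description. None of Col4a5, Col4a6, Col11a1 and Col11a2 was called between the NPC groups.

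In ESC no tested collagen gene was called between the genotypes. In KO ESC against WT ESC, 0 of the 25 tested genes passed with limma (0.248% of all genes tested did), and 0 reached an unadjusted p under 0.05, which 12.7% of all genes tested did. The largest change was −0.28 ± 0.14 for Col9a2 (adjusted p = 0.470, limma), which had 2.05 and 1.78 FPKM in KO ESC against 2.23 and 2.85 FPKM in WT ESC. Col18a1 had 21.5 and 20.2 FPKM in KO ESC against 20.6 and 19.9 FPKM in WT ESC, and Col4a1 had 3.67 and 3.09 FPKM in KO ESC against 3.65 and 3.28 FPKM in WT ESC. Besides these 3 genes Col5a1, Col13a1 and Col4a2 reached 1 FPKM in at least 2 ESC libraries, and none of the 3 was called (changes −0.10 ± 0.12, −0.04 ± 0.17 and 0.04 ± 0.16). Of the other 19 tested genes, Col11a1 lay between 0.393 and 1.11 FPKM in ESC and was not called (0.26 ± 0.18, adjusted p = 0.611, limma). The rest lay at or below 0.325 FPKM in every ESC library, too low for a change to be seen there.

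Most tested collagen genes were higher in NPC than in ESC in both genotypes. In KO NPC against KO ESC 24 of 25 passed (70.3% of all genes tested did), 23 higher (41.6%) and 1 lower (28.8%). In WT NPC against WT ESC 23 of 25 passed (72.6% of all genes tested did), 22 higher (41.6%) and 1 lower (31.1%). The filter bears on these counts, since 19 of the genes were admitted through NPC, and nothing is read from them. Median-ratio scaling lowered the median of all genes by 0.14 for KO and by 0.10 for WT.

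The largest rise was that of Col3a1, by 5.23 ± 0.14 in KO (adjusted p = 2.65e-07, limma) and 5.60 ± 0.14 in WT (adjusted p = 2.06e-07, limma). Col1a1 rose by 3.62 ± 0.13 in KO and 4.39 ± 0.13 in WT, Col2a1 by 3.73 ± 0.15 and 3.48 ± 0.15, and Col1a2 by 4.10 ± 0.17 and 3.63 ± 0.17. Col3a1, Col1a1, Col2a1 and Col1a2 were admitted only through NPC. The filter thus required a higher level in at least some NPC, and these rises are a description. Among the genes already seen in ESC, Col4a1 rose by 2.26 ± 0.10 in KO and 2.66 ± 0.10 in WT, and Col18a1 by 0.50 ± 0.11 and 1.03 ± 0.11. Col9a2 was the one tested collagen gene that fell, by 0.78 ± 0.14 in KO (adjusted p = 0.00183, limma) and fell by 1.012 ± 0.14 in WT (adjusted p = 4.33e-04, limma).

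A few genes passed in 1 genotype. Col13a1 changed by 0.74 ± 0.17 in KO (adjusted p = 0.00623, limma) and 0.15 ± 0.17 in WT (adjusted p = 0.464, limma). Col9a1 changed by 1.57 ± 0.19 in KO (adjusted p = 2.73e-04, limma) and 0.47 ± 0.19 in WT (adjusted p = 0.0635, limma), where it passed without KO NPC replicate 1 (0.0483), KO NPC replicate 2 (0.0475) or WT NPC replicate 2 (0.0152). Col6a2 changed by 0.27 ± 0.12 in KO (adjusted p = 0.0857, limma) and 1.151 ± 0.12 in WT (adjusted p = 1.20e-04, limma), and it passed in KO without WT NPC replicate 1 (0.0223) or WT NPC replicate 2 (0.0212). Col9a1 reached the minimum only through KO NPC and Col6a2 only through WT NPC, so the filter favoured a pass in that genotype. Whether the genotypes differ is a matter for the test of the difference, given next.

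**Figure D5:**
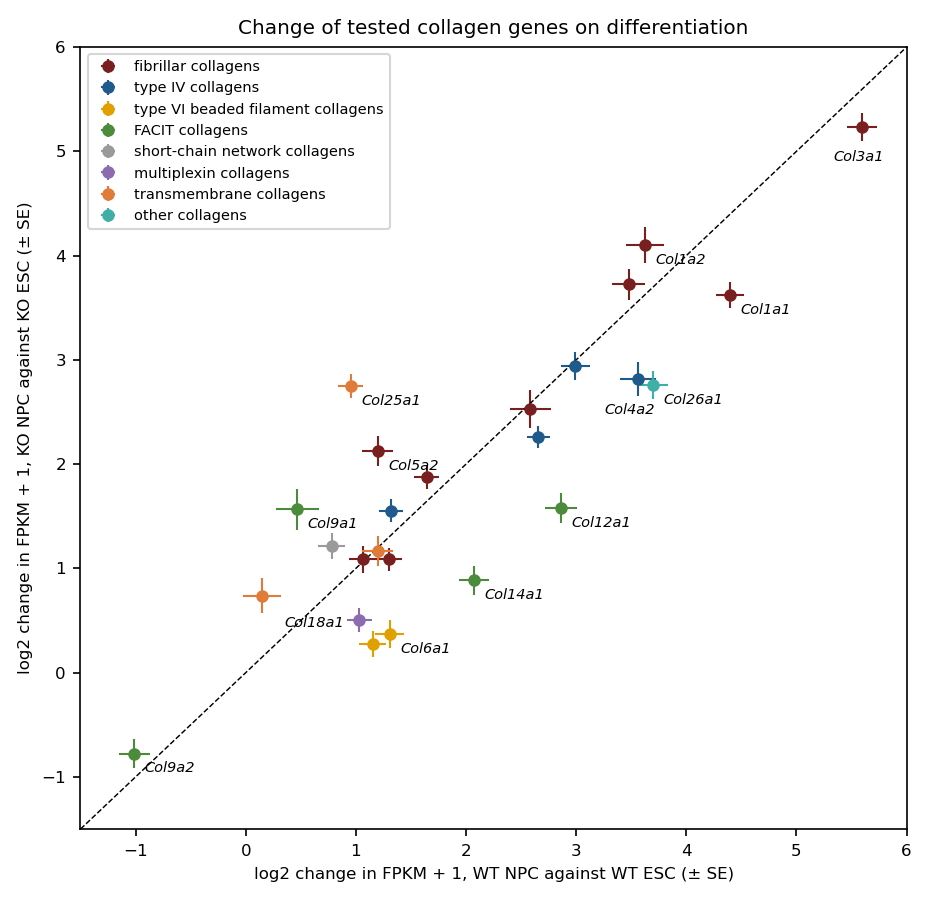
Log2 changes in FPKM + 1 of NPC against ESC, KO on the vertical and WT on the horizontal axis, with SE bars and the line of equal change. Col25a1 (2.75 in KO, 0.95 in WT) and Col5a2 (2.13 in KO, 1.20 in WT) lie above the line, and Col12a1 (1.58 in KO, 2.86 in WT) and Col14a1 (0.88 in KO, 2.07 in WT) lie below it.

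That difference, which equals the KO effect in NPC minus the KO effect in ESC, passed for 9 of the 25 genes (16.8% of all genes tested): 3 higher (8.41%) and 6 lower (8.39%). The higher were Col25a1, by 1.80 ± 0.16 (adjusted p = 7.76e-04, limma), Col9a1 and Col5a2. The lower were Col12a1, by 1.28 ± 0.20 (adjusted p = 0.00702, limma), Col14a1, by 1.19 ± 0.19 (adjusted p = 0.00741, limma), Col26a1, Col6a1, Col6a2 and Col1a1. All 9 lay at or below 0.188 FPKM in every ESC library and had been admitted through NPC, so their KO effect in ESC was held near 0 and the difference repeats the NPC change (1.80 beside 1.81 for Col25a1, −1.28 beside −1.28 for Col12a1). It is no separate evidence that the effect depends on stage. For Col13a1 the difference of 0.59 ± 0.24 did not pass (adjusted p = 0.145, limma), and for Col18a1, Col4a1 and Col4a2, which fell in KO NPC, it did not pass either (adjusted p = 0.0675, 0.121 and 0.0729, limma). This count is the one that rests most on single libraries, at 3 without KO ESC replicate 2, 4 without KO ESC replicate 1, WT ESC replicate 1 or WT ESC replicate 2, 6 without KO NPC replicate 2 or WT NPC replicate 2, and 8 without KO NPC replicate 1 or WT NPC replicate 1. Col12a1, Col14a1 and Col25a1 passed in all 8 of these fits. The fits with 1 library left out kept the genes admitted with all 8 libraries. Col14a1 reached the minimum only through WT NPC, so it would not have been tested without either WT NPC library. Of the 9 genes, Col6a1 and Col6a2 also reached it only through WT NPC, and Col25a1 and Col9a1 only through KO NPC. With a pseudocount of 0.1 the count was 4.

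The proteins that make, cut and bind collagen were followed as lists, in KO NPC against WT NPC. Their counts stand beside 14.7% higher and 12.7% lower over all genes tested, whose median was 0.05; over all 6 lists 14 of 51 tested genes rose and 9 fell. Of 16 tested genes for chain modification and folding 5 rose and 1 fell, with a list median of 0.14. Serpinh1, the collagen chaperone HSP47, had 129 and 126 FPKM in KO NPC against 74.2 and 69.8 FPKM in WT NPC, and rose by 0.82 ± 0.10 (adjusted p = 0.00144, limma). Fkbp14, a prolyl isomerase of the endoplasmic reticulum, rose by 0.93 ± 0.19, and Crtap, part of the prolyl 3-hydroxylation complex, rose by 0.58 ± 0.11. P4ha1, a catalytic subunit of collagen prolyl 4-hydroxylase, had 9.39 and 8.26 FPKM in KO NPC against 14.7 and 17.2 FPKM in WT NPC, and fell by 0.79 ± 0.14 (adjusted p = 0.00664, limma). The other risers, P4ha3 and P4hb, also encode subunits of prolyl 4-hydroxylase, so subunits of this enzyme changed both ways.

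Among 9 tested genes of procollagen processing and cross-linking 1 rose and 1 fell, with a median of 0.05. The riser was Sparc, a matricellular protein that binds collagen, with 131 and 114 FPKM in KO NPC against 62.1 and 58.6 FPKM in WT NPC (change 1.002 ± 0.09, adjusted p = 2.66e-04, limma). Of 4 tested collagen receptors 1 rose and 2 fell, with a median of −0.29. Ddr1, a receptor tyrosine kinase that collagen activates, had 10.4 and 13.4 FPKM in KO NPC against 34.6 and 34.8 FPKM in WT NPC and fell by 1.48 ± 0.13 (adjusted p = 2.72e-04, limma), while Itgb1, the shared beta chain of collagen-binding integrins, rose by 0.72 ± 0.06 (adjusted p = 3.14e-04, limma). Of 3 tested collagen-degrading enzymes 2 rose and 1 fell, with a median of 0.69: Mmp2 rose by 0.78 ± 0.19 and Mmp14, the membrane protease that activates it, by 0.69 ± 0.11. Fap fell, with 0.103 and 0.0322 FPKM in KO NPC against 2.19 and 2.15 FPKM in WT NPC.

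Of 11 tested partners of type IV collagen in the basement membrane 3 rose and 2 fell, with a median of 0.10. Lama1, the laminin alpha chain of early basement membranes, had 3.57 and 4.13 FPKM in KO NPC against 6.86 and 6.86 FPKM in WT NPC and fell by 0.70 ± 0.11 (adjusted p = 0.00327, limma). Lamb2, a laminin beta chain, had 11.9 and 12 FPKM in KO NPC against 7.61 and 6.86 FPKM in WT NPC and rose by 0.66 ± 0.14 (adjusted p = 0.0136, limma). The nidogens, which link laminin to type IV collagen, went opposite ways, with Nid1 up by 0.64 ± 0.16 (adjusted p = 0.0240, limma) and Nid2 down, a change of −0.34 ± 0.09 (adjusted p = 0.0370, limma). Of 8 tested transcription factors known to act on collagen genes 2 rose and 2 fell, with a median of −0.02. Foxc2, a forkhead factor of paraxial mesoderm, rose by 1.47 ± 0.19, and Creb3l1, which drives type I collagen genes in bone, by 0.48 ± 0.14. Runx2 stood lower in KO NPC, at 0.3595 and 0.830 FPKM against 1.454 and 1.56 FPKM in WT NPC. So did Sox6, at 0.985 and 0.9615 FPKM against 2.125 and 1.895 FPKM. In these 6 lists Fap, Loxl1, Loxl3, Runx2 and Sox6 reached the minimum only through WT NPC, and Lama2 only through KO NPC. The list counts are therefore a description. No gene of these 6 lists passed in KO ESC against WT ESC with limma. There 6 of the 51 tested genes (11.8%) reached an unadjusted p under 0.05, beside 12.7% of all genes tested.

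Markers of other cell types that make collagen also moved between the NPC groups. Their counts stand beside 14.7% higher and 12.7% lower over all genes tested, whose median was 0.05. The 12 fibroblast and mesenchyme markers summed to 92.6 and 76.7 FPKM in KO NPC against 78.3 and 86.5 FPKM in WT NPC, overlapping ranges, and of 11 tested 1 rose (Pdgfra, by 1.20) and 5 fell (Lum, Thy1, Postn, Dcn and Prrx1), with a median of −0.37. S100a4 was at 0 in both KO NPC libraries. The 12 endoderm markers summed to 84.8 and 74.5 FPKM in KO NPC against 45.4 and 42.8 FPKM in WT NPC, and of 9 tested 5 rose, Gata4 by 2.95 and Gata6 by 1.40, and 2 fell, with a median of 0.50. Pth1r, a marker of parietal endoderm, was one of those that fell, with 11.8 and 12.9 FPKM in KO NPC against 17.1 and 20.3 FPKM in WT NPC (−0.56 ± 0.17). The 8 endothelial markers summed to 36.4 and 34.4 FPKM in KO NPC against 14.7 and 14.1 FPKM in WT NPC, and of 7 tested 5 rose, Pecam1 by 1.75 and Cdh5 by 0.94, and 0 fell, with a median of 0.94. Pecam1 lay between 22.1 and 24.7 FPKM in the ESC libraries, above all NPC libraries. No endoderm or endothelial marker was at 0 in both libraries of an NPC group. The 8 cartilage and notochord markers summed to 11.1 and 11.8 FPKM in KO NPC against 5.88 and 4.60 FPKM in WT NPC, and of 3 tested 1 rose (Hapln1, by 1.19), with a median of 0.69; Lect1, T and Noto were at 0 in both KO NPC libraries and Matn1 and Noto in both WT NPC libraries. The filter bears on these lists too. Lum, Postn, Dcn, Thy1 and Sox17 reached the minimum only through WT NPC, as did Hes5 of the neural progenitor list. Apoa1, Hnf4a, Tie1 and Shh reached it only through KO NPC. The counts and medians of the marker lists are therefore a description. The part of these cell types in the collagen changes was not tested.

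In ESC, which may have been grown on feeder fibroblasts, the mesenchyme list summed to 8.81 and 9.26 FPKM in KO ESC and 10.1 and 10.5 FPKM in WT ESC, of which Acta2 held 5.63 and 5.79 FPKM in KO ESC and 4.48 and 5.79 FPKM in WT ESC. Twist1, Prrx2, Pdgfrb and Thy1 were seen in all 4 ESC libraries, with Twist1 between 0.913 and 1.90 FPKM, Prrx2 between 0.503 and 1.85 FPKM, Pdgfrb between 0.714 and 1.18 FPKM and Thy1 between 0.625 and 1.05 FPKM. Pdgfra, Prrx1, Twist2 and Dcn lay at or below 0.192 FPKM, Lum, Postn and S100a4 were at 0 in all 4 ESC libraries, and Col1a1, a gene that fibroblasts express strongly, was at or below 0.124 FPKM there. The part of feeder RNA in the ESC values was not tested.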

How the data were processed

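Processed tables of 8 poly(A) RNA-seq libraries were used, 2 for each of the KO NPC, WT NPC, KO ESC and WT ESC groups. Per the submitters' processing notes, TopHat2 2.1.1, Cufflinks 2.2.1 and build mm9 were used; the order and settings are not given in the sources used here. The authors deposited FPKM values per gene with 95% limits. Entries of 1 symbol were summed, and 12 symbols with a failed estimate, none of them a collagen gene, were left out. Fragments behind a value were computed from its upper limit; between 66.9% and 71.6% of low values came within 0.05 of a whole number, so no read counts were recovered and no count test was run.

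Genes at 1 FPKM or more in at least 2 libraries (13318) were fitted with limma 3.58.1 in R 4.3.3 on log2(FPKM + 1), with a mean for each of the 4 groups and a trended variance (residual degrees of freedom, 4); p-values were two-sided and adjusted by Benjamini-Hochberg over all genes. The fit was tested on simulated data. Values per library are given for collagen genes with a mean of at least 5 FPKM in a group and their partner chains; Col6a1, Col6a2, Col6a3, Col8a2, Col9a1, Col9a2, Col9a3 and Col13a1 were added after their values were seen. From each other list up to 4 called genes with a mean of at least 5 FPKM were named by size of change. The mesenchyme markers named beside Pdgfra and Prrx1 and Sox1, P4ha3, P4hb and Klf4 were named after their values were seen. The same holds for Fap, Runx2, Sox6, Loxl1, Loxl3, Lama2, Sox17, Apoa1, Hnf4a, Tie1 and Shh. Collagen genes and lists were chosen with earlier results of these data known. Table starts count from 0 and are printed counting from 1. Alternatives were another pseudocount, minimum, scaling, entry rule, variance model, block and sample set, and leaving out each library. The fits without 1 library kept the genes tested in the main fit.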

Additional observations from a re-analysis of the deposited data

Results flagged for a closer look

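For 9 collagen genes the KO effect in NPC minus the KO effect in ESC (log2, limma) passed the threshold. All 9 lay at or below 0.188 FPKM in all 4 ESC libraries, where no change could be seen, so these differences restate the NPC changes and do not show that the effect depends on stage. The differences above 0 were those of Col25a1 (1.80), Col9a1 (1.10) and Col5a2 (0.93). Those below 0 were those of Col12a1 (−1.28), Col14a1 (−1.19), Col26a1 (−0.94), Col6a1 (−0.94), Col6a2 (−0.88) and Col1a1 (−0.77). Of the 9, Col25a1 and Col9a1 reached the minimum only through KO NPC, and Col14a1, Col6a1 and Col6a2 only through WT NPC. Fits with 1 library left out nevertheless kept the genes admitted with all 8 libraries. Leaving out 1 library at a time kept the calls of Col12a1, Col14a1 and Col25a1 in all 8 fits, and each of the other 6 lost its call in at least 3 fits: the highest adjusted p was 0.104 for Col9a1 (without KO ESC replicate 2), 0.0793 for Col1a1 (without KO ESC replicate 1), 0.0790 for Col5a2 (without KO ESC replicate 2), 0.0631 for Col6a2 (without KO ESC replicate 1), 0.0622 for Col6a1 (without KO ESC replicate 2) and 0.0605 for Col26a1 (without KO ESC replicate 2).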

How the results depend on the processing

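No called collagen gene changed direction under any alternative run, whereas uncalled changes near 0 took the other sign for 16 genes in KO ESC against WT ESC, 4 in KO NPC against WT NPC and 4 in the difference of the KO effects. With a minimum of 5 FPKM, which leaves 13 collagen genes to test, 7 passed in KO NPC against WT NPC (1 higher, 6 lower), 13 in KO NPC against KO ESC, 13 in WT NPC against WT ESC and 4 in the difference of the KO effects; a pseudocount of 0.1 also gave 4 in that difference. Leaving out 1 library at a time gave 9 to 13 collagen calls in KO NPC against WT NPC, 0 in every fit for KO ESC against WT ESC, 23 to 25 in KO NPC against KO ESC, 23 to 24 in WT NPC against WT ESC and 3 to 8 in the difference; the call of Col6a1 in KO NPC against KO ESC was lost without KO ESC replicate 1 or 2, WT ESC replicate 1 or 2 or KO NPC replicate 2 (adjusted p = 0.0564 to 0.159, limma). Without a filter, 17 collagen genes passed in KO NPC against WT NPC, among them Col6a3 (−0.79), Col16a1 (−0.43), Col15a1 (−0.31) and Col22a1 (−0.46). The cause was not tested.

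The labels do not say whether equal replicate numbers pair the samples. The differences between duplicates correlated between groups at r = −0.05 to 0.18 over 13318 genes, which cannot decide it. With a replicate block 13 collagen genes passed in KO NPC against WT NPC, 0 in KO ESC against WT ESC, 24 in KO NPC against KO ESC, 23 in WT NPC against WT ESC and 8 in the difference; Col13a1 passed and Col8a2 did not in KO NPC against WT NPC (adjusted p = 0.0306 and 0.0566, limma), and Col9a1 did not in the difference (0.0575). Of all genes, KO ESC against WT ESC called 33, against 15 with the block and 10 to 18 with 1 library left out; KO NPC against WT NPC called 3648, against 2281 without KO NPC replicate 1 and 2418 without KO NPC replicate 2; and the difference called 2237, against 1283 to 1822 with 1 library left out. Depth limits Col6a1, Col6a2, Col8a2, Col9a1 and Col9a2, which rest on 4 to 84 fragments per NPC library; intervals from fragments cover counting error only.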
